A study of Mus musculus with 27 samples.

Results

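A set of 9 genes that bear on making and burning glucose in the liver was followed through a reproductive cycle in mice. They were taken as a list by role: Pck1, G6pc, Fbp1 and Pcx, enzymes of glucose production; Ppargc1a, a coactivator of their transcription; Slc2a2, the hepatocyte glucose transporter; and Gckr, Pklr and Pfkfb1, which act on glycolysis. Each of the 9 symbols matched 1 gene among the 51826 Ensembl identifiers in the deposited tables, and all 9 passed the filter on low counts that left 16428 genes for testing.

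The liver makes glucose from lactate, alanine and glycerol by gluconeogenesis and breaks it down by glycolysis. The opposing steps are carried out by different enzymes. Those of production are pyruvate carboxylase (Pcx), phosphoenolpyruvate carboxykinase (Pck1), fructose-1,6-bisphosphatase (Fbp1) and glucose-6-phosphatase (G6pc), and liver pyruvate kinase (Pklr) serves breakdown. Only mRNA was measured here, and not the activity of these enzymes or the flow of glucose. Glucagon and glucocorticoids are known to raise transcription of Pck1, G6pc and Ppargc1a, and insulin and dietary carbohydrate to raise Pklr. A lactating mammary gland draws on glucose for milk sugar and fat, and that demand ends when the pups are weaned.

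Whole livers of wild-type BALB/c females, an inbred laboratory strain, were sequenced in bulk, 1 library per animal, and the labels name no transgene, deletion or drug in any group. The 7 groups were nulliparous animals (NUL, n = 4), animals at day 10 of lactation (LAC, n = 3), animals 2 (ID2, n = 3), 4 (ID4, n = 4), 6 (ID6, n = 6) and 8 (ID8, n = 3) days after their pups were removed, called involution days after the mammary gland, and animals 4 weeks after weaning, called regressed (REG, n = 4). Mating took place at 10 to 12 weeks of age, litters were evened out in size, and pups were removed at 10 to 14 days of lactation. Feeding state, hour of collection and plasma glucose are not given in the labels. Each p-value below sets a difference between stages against the spread between animals within stages.

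Libraries held 41120650 to 75664540 expected counts, and the common dispersion corresponded to a biological coefficient of variation of 0.19. Hepatocyte markers were high in every library, with Alb between 67200 and 203000 CPM (expected counts scaled to the library's total, as defined below). Exocrine pancreas genes summed to 1960 CPM in ID2_31 and to 148 in ID4_15, against at most 37.7 elsewhere, while islet genes, which include the islet relative G6pc2, summed to at most 3.41. The animal numbers in the titles fell in a range under 200 (all 3 ID8, 2 of 3 ID2 and 2 of 4 ID4 animals) and a range of 200 or over (the other 20), and the labels do not say what the ranges stand for. A clock score, the mean scaled level of day-peaking minus night-peaking clock genes, ran from 1.16 to 4.68 in ID2 and from -2.14 to 0.97 in NUL and LAC. In whole tissue, fewer cells of a type and less RNA per cell cannot be told apart.

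Promoters are shown for the genes whose mRNA changed most between lactation and weaning or that are the classical targets of the fasting signal. The sequences are RefSeq windows on GRCm38.p6, from 250 bases before to 50 bases after an annotated start, 5′ to 3′ on the gene's strand. Capitals mark the words found by a search of both strands for TGACGTCA and its 5-base part TGACG (cAMP response element), TGTTTAC (forkhead factors), CACGTG (E-box) and TATAAA, the TATA box. TGACGTCA holds TGACG. Pck1 lies at chr2:173152823-173153122 on the plus strand, Ppargc1a at chr5:51567676-51567975 on the minus strand, G6pc at chr11:101367466-101367765 on the plus strand, and the downstream of 2 Pklr starts at chr3:89136373-89136672 on the plus strand.
Pck1: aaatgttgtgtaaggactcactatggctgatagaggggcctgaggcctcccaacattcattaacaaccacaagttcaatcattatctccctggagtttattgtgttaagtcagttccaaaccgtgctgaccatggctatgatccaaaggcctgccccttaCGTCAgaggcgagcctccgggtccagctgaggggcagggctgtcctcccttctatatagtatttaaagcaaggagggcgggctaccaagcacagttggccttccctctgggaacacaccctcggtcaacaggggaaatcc
Ppargc1a: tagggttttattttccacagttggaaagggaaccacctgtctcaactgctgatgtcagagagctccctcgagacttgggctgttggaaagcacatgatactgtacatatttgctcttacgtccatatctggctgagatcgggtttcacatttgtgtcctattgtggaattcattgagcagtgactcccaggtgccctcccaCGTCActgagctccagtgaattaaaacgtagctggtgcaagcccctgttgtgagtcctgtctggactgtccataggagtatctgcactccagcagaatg
G6pc: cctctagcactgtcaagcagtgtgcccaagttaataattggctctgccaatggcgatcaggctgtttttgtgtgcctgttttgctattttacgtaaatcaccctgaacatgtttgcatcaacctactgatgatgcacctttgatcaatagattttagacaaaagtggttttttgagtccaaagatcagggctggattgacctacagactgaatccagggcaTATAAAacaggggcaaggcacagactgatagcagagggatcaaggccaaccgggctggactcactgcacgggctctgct
Pklr: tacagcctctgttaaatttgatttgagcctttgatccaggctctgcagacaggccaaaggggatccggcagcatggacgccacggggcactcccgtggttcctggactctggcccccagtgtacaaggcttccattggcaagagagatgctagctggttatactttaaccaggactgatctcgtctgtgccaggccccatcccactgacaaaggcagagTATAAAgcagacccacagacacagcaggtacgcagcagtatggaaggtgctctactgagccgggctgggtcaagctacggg

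Pck1 and Ppargc1a carried TGACG on the reverse strand, seen above as CGTCA, with its first base at -90 and -49 from the start. G6pc and the downstream Pklr window carried TATAAA at -29 and -31. All 9 genes matched the promoter table, and of the other windows 1 of Pcx held CACGTG at -248 and 1 of Pfkfb1 held TATAAA at -193. Among the 32851 windows of the table, 20.8% held TGACG, 13.6% TATAAA and 7.15% CACGTG. The full TGACGTCA (1.79% of windows) and TGTTTAC (3.65%) were in no window of these genes. These matches describe letters only.

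Over the 7 stages, 7 of the 9 genes differed in a joint test (edgeR's quasi-likelihood test with Benjamini-Hochberg adjustment over all genes tested, called at an adjusted p under 0.05), where 27% of all genes were called. The smallest edgeR adjusted p values were those of Pfkfb1 (3.43e-05) and Pklr (6.42e-05), followed by Pcx (0.000766), Ppargc1a (0.00106), Fbp1 (0.00212), Pck1 (0.0062) and Slc2a2 (0.0232). G6pc (0.559) and Gckr (0.115) were not called. The ratio of the highest to the lowest stage mean was 4.74 for Pck1, 4.11 for Pklr, 2.92 for Pfkfb1, 2.5 for Ppargc1a, 2.01 for G6pc and between 1.25 and 1.59 for Fbp1, Pcx, Slc2a2 and Gckr. Pck1 and Pklr therefore had the widest swings, one an enzyme of glucose production and the other of glycolysis. Pck1 had its lowest stage mean in LAC and its highest in ID2, and Pklr its highest in LAC and its lowest in ID4.

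Levels of different genes were compared in TPM, the authors' length-scaled value. Averaged over the 7 stage means, Fbp1 stood at 1120 TPM and Pck1 at 870, ahead of G6pc (256), Pklr (208), Pcx (174), Slc2a2 (116) and Gckr (99). The regulators were scarcer, with Pfkfb1 at 11.5 TPM and Ppargc1a at 1.59 TPM. Ppargc1a rested on at most 837 expected counts per library, the fewest of the 9 genes. Everywhere else below, a level is in CPM, expected counts relative to the library's total after TMM scaling, which compares 1 gene across animals.

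**Figure D1:**
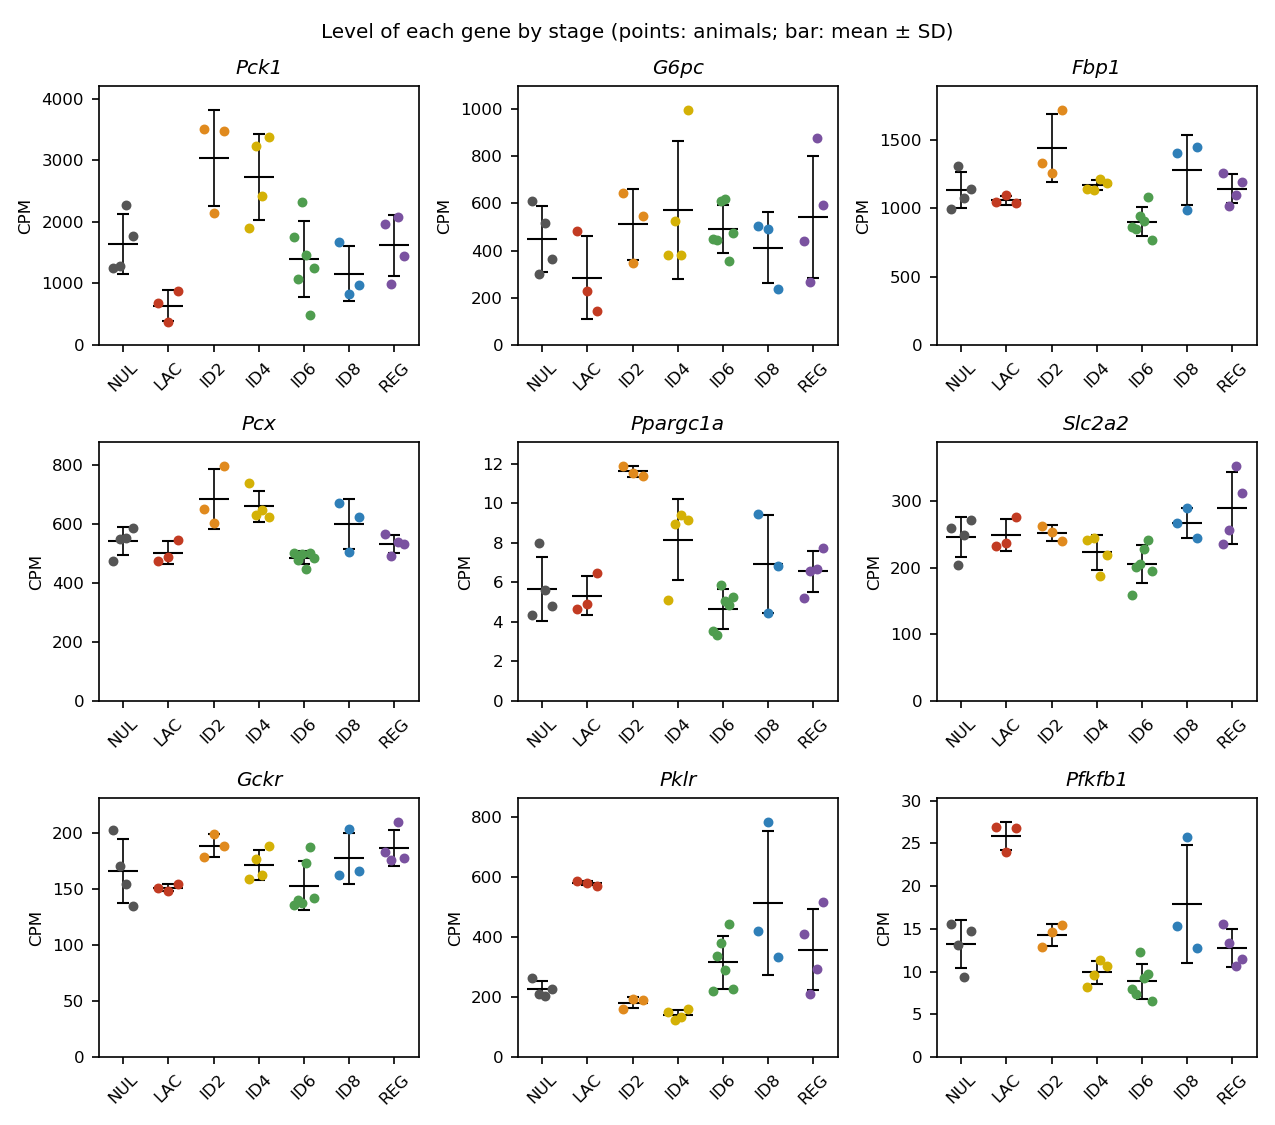
Level of each of the 9 genes (CPM, vertical axis from 0) in every animal by stage (horizontal axis); points are animals, and bars are the stage mean ± SD. Pck1 is lowest in LAC and highest in ID2 and ID4, Pklr is high in LAC and lowest in ID4, and G6pc and Gckr overlap across most stages.

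Pck1 (ENSMUSG00000027513, chromosome 2, 173153048 to 173159273, GRCm38) encodes the cytosolic enzyme that turns oxaloacetate into phosphoenolpyruvate, the committed step of gluconeogenesis. It stood at 1245, 1277, 2278 and 1772 CPM in the 4 NUL livers and at 682, 369 and 876 CPM in the 3 LAC livers. At ID2 it read 3513, 2143 and 3481 CPM, and at ID4 1899, 3235, 2426 and 3389 CPM. Every LAC liver was below every NUL liver and every ID2 liver, and the ID2 and ID4 animals overlapped. At ID6 the 6 animals ran from 492 through a median of 1360 to 2317 CPM, ID8 read 1674, 831 and 979.8 CPM, and REG read 1960, 986.9, 2078 and 1454 CPM. These last 3 stages overlapped with one another and with NUL.

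Against NUL, Pck1 fell in lactation by 1.36 on the log2 scale (SE 0.42, 2.56-fold lower), from 1643 ± 488 (SD, n = 4) to 642 ± 256 CPM (SD, n = 3), with an edgeR adjusted p of 0.0427. The call was lost when LAC_200, LAC_213, NUL_226 or NUL_227 was left out, reaching 0.199 without LAC_213, and with no count filter (0.0699), the number of runs as a covariate (0.0522) only the NUL and LAC libraries in the fit (0.0698) or only animals numbered 200 or over (0.0775). From LAC to ID2 it rose by 2.25 (SE 0.46, 4.74-fold) to 3046 ± 782 CPM (SD, n = 3), edgeR adjusted p = 0.00242, and this call held in all 6 fits without 1 animal. Set against NUL, the ID2 difference of 0.89 (95% interval 0.05 to 1.73, edgeR adjusted p = 0.264) was not called. From ID4 to ID6 the difference was -0.97 (95% interval -1.68 to -0.27, edgeR adjusted p = 0.0805), and DESeq2 called it at 0.0281.

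G6pc (ENSMUSG00000078650, chromosome 11, 101367561 to 101377903) encodes the catalytic subunit of glucose-6-phosphatase, which releases free glucose from the cell. NUL livers read 609, 302, 518 and 365 CPM, LAC livers 482, 228 and 146 CPM and ID2 livers 643, 348 and 546 CPM. ID4 read 379.7, 528, 383 and 998 CPM, ID6 355 to 619 CPM with a median of 462 CPM, ID8 506, 491 and 238 CPM, and REG 443, 266, 876 and 592 CPM. Animals of 1 stage differed as widely as stages did, with the highest value in an ID4 animal and the lowest 2 values in LAC.

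No comparison of G6pc was called. From NUL to LAC its difference was -0.65 (95% interval -1.57 to 0.27, edgeR adjusted p = 0.404), and from LAC to ID2 it was 0.85 (95% interval -0.13 to 1.82, edgeR adjusted p = 0.244). The first interval takes in both 0 and a fall as large as that of Pck1, and whether the responses of G6pc and Pck1 differ was not tested.

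Fbp1 (ENSMUSG00000069805, chromosome 13, 62864753 to 62888282, minus strand) encodes the bisphosphatase that opposes phosphofructokinase. It read 998, 1309, 1076 and 1143 CPM in NUL, 1044, 1094 and 1036 CPM in LAC, and 1333, 1261 and 1722 CPM in ID2. It then stood at 1139, 1136, 1213 and 1186 CPM in ID4, at 770 to 1080 CPM with a median of 886 CPM in ID6, at 1401, 986 and 1451 CPM in ID8, and at 1260, 1020, 1098 and 1194 CPM in REG. ID2 was above LAC and ID4 without overlap, and ID6 was below ID4 without overlap. Fbp1 rose from LAC to ID2 by 0.44 (SE 0.14, edgeR adjusted p = 0.0268), fell from ID4 to ID6 by 0.37 (SE 0.11, edgeR adjusted p = 0.028) and rose from ID6 to ID8 by 0.50 (SE 0.12, edgeR adjusted p = 0.0144). Each of these small changes was lost in part of the fits without 1 animal, in 4 of 6, 5 of 10 and 2 of 9 fits in that order, with the largest adjusted p of the first at 0.197 without ID2_39.

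Pcx (ENSMUSG00000024892, chromosome 19, 4510472 to 4621752) encodes pyruvate carboxylase, the mitochondrial entry step of gluconeogenesis. NUL read 476, 549, 555 and 589 CPM, LAC 475, 488 and 547 CPM, ID2 654, 603 and 799.7 CPM, and ID4 740, 633, 648 and 625.2 CPM. ID6 lay within 448 to 504 CPM with a median of 493.1 CPM, ID8 read 671, 506 and 626 CPM, and REG 567.9, 493.5, 538 and 533 CPM. All 7 animals of ID2 and ID4 were above all animals of NUL, LAC and ID6. Pcx rose from LAC to ID2 by 0.45 (SE 0.11, edgeR adjusted p = 0.00711) and fell from ID4 to ID6 by 0.44 (SE 0.09, edgeR adjusted p = 0.00217). The fall held in all 10 fits without 1 animal, and the rise was lost without ID2_39 (0.0717). Against NUL, the ID2 and ID4 differences of 0.34 and 0.29 were not called by edgeR (adjusted p = 0.0668 and 0.0863), and DESeq2 called both (0.0245 and 0.0378). Pcx shares its locus with Lrfn4 on the other strand, which had 81 to 273 counts against at least 25934 for Pcx.

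Ppargc1a (ENSMUSG00000029167, chromosome 5, 51454250 to 51567726, minus strand) encodes PGC-1alpha, a coactivator that fasting induces in liver. It read 4.34, 7.99, 5.62 and 4.79 CPM in NUL, 4.66, 4.90 and 6.46 CPM in LAC, and 11.9, 11.5 and 11.4 CPM in ID2. ID4 read 5.11, 8.97, 9.42 and 9.17 CPM, ID6 3.34 to 5.88 CPM with a median of 4.945 CPM, ID8 9.45, 4.47 and 6.85 CPM, and REG 5.23, 6.56, 6.67 and 7.76 CPM. The 3 ID2 livers were the highest of all 27 and close together, and 1 ID4 animal, ID4_13, lay apart from the other 3. From LAC to ID2 Ppargc1a rose by 1.12 (SE 0.26, 2.18-fold, edgeR adjusted p = 0.00451), and from ID4 to ID6 it fell by 0.81 (SE 0.20, edgeR adjusted p = 0.0129). Both calls held in every fit without 1 animal. Against NUL, ID2 was higher by 1.03 (SE 0.24, edgeR adjusted p = 0.0142), a call lost without ID2_39 (1.05, adjusted p = 0.0568), with the clock score as a covariate (1.21, 0.124) and among animals numbered 200 or over (1.07, 0.249, with 1 ID2 animal), where the differences were no smaller.

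Slc2a2 (ENSMUSG00000027690, chromosome 3, 28697903 to 28731359) encodes GLUT2, through which hepatocytes take up and release glucose. Its stage means ran from 205 ± 28.5 CPM (SD, n = 6) in ID6 to 289 ± 53.7 CPM (SD, n = 4) in REG, with NUL at 246 ± 29.6 CPM (SD, n = 4), LAC at 248 ± 24.1 CPM (SD, n = 3) and ID2 at 252 ± 11.7 CPM (SD, n = 3). The joint test called it, and none of the 11 pairwise comparisons did. The smallest adjusted p was that of ID6 to ID8, from 159 to 241 CPM in the 6 ID6 livers to 267, 289 and 244 CPM in ID8 without overlap, a difference of 0.38 (SE 0.12, edgeR adjusted p = 0.0705), which DESeq2 called (0.039). From LAC to ID2 the difference was 0.02 (95% interval -0.27 to 0.31), an interval that does not reach the changes of Pck1 and Pklr at that step.

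Gckr (ENSMUSG00000059434, chromosome 5, 31297443 to 31327314) encodes a hepatocyte regulatory protein that restrains glycolysis when glucose is low. It read 202.7, 170.2, 154 and 135 CPM in NUL, 150.3, 148 and 154 CPM in LAC, 178, 199 and 188 CPM in ID2, and 159, 176, 162 and 188 CPM in ID4. Later stages overlapped with these, from 136 to 188 CPM in ID6, 162 to 203.2 CPM in ID8 and 176 to 209.9 CPM in REG. LAC and ID2 did not overlap, and their difference of 0.32 (95% interval 0.05 to 0.58, edgeR adjusted p = 0.0928) was not called, except with only these 2 groups in the fit (0.0154).

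Pklr (ENSMUSG00000041237, chromosome 3, 89136142 to 89146784) encodes the liver and red cell pyruvate kinase, the last step of glycolysis. NUL livers read 264.6, 209.1, 202.9 and 227.2 CPM, and LAC livers 585, 579 and 571 CPM. ID2 livers read 159, 194 and 190 CPM, and ID4 livers 149.5, 122, 133 and 159 CPM. The LAC livers were close to one another and above every liver of NUL, ID2, ID4, ID6 and REG. ID2 against NUL (-0.32, edgeR adjusted p = 0.622) and ID4 against ID2 (-0.36, edgeR adjusted p = 0.613) were not called, and the lowest ID2 and the highest ID4 liver both rounded to 159 CPM. From day 6 the values spread out: ID6 ran from 218.2 through a median of 314 to 443 CPM, ID8 read 421, 784 and 332 CPM, and REG 411, 209.02, 294 and 516 CPM. The highest single liver of the series was ID8_14.

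Pklr rose in lactation against NUL by 1.36 (SE 0.28, 2.56-fold), from 225.96 ± 27.8 (SD, n = 4) to 578 ± 7.18 CPM (SD, n = 3), edgeR adjusted p = 0.00281. It fell from LAC to ID2 by 1.68 (SE 0.31, 3.20-fold lower, edgeR adjusted p = 0.000911) and rose from ID4 to ID6 by 1.16 (SE 0.25, 2.24-fold, edgeR adjusted p = 0.00528). These 3 calls held in every fit without 1 animal. At ID8 the difference from NUL was 1.18 (95% interval 0.61 to 1.76) without overlap and just missed the threshold (edgeR adjusted p = 0.0577), where DESeq2 called it (0.00735). All ID8 animals are numbered under 200 and all NUL animals 200 or over, so stage and range cannot be told apart here; with the range as a covariate the difference was 1.14 (adjusted p = 0.336). At REG it was 0.66 (95% interval 0.12 to 1.20, edgeR adjusted p = 0.544) with overlap.

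Pklr counts were fractional in 26 libraries, so some reads were shared with another gene, and its 3′ end overlaps Hcn3 on the other strand (192 to 2358 counts, against at least 7388 for Pklr). Since red cells use the upstream start of Pklr, the erythroid list is given beside it: 9 of its 10 genes were found, none of the 9 was at 0 in every library, and their sum was 335 to 713 CPM in NUL, 768 to 1020 CPM in LAC, 411 to 1190 CPM in ID2, 407 to 1030 CPM in ID4, 53.1 to 264 CPM in ID6, 19.9 to 35 CPM in ID8 and 451 to 639 CPM in REG. In LAC, where Pklr rose, the erythroid sum was above every NUL liver, and its part in that rise was not tested.

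Pfkfb1 (ENSMUSG00000025271, chromosome X, 150588229 to 150643878) encodes the liver form of the enzyme that makes and removes fructose-2,6-bisphosphate, the signal that favours glycolysis over gluconeogenesis. It read 15.6, 13.1, 9.39 and 14.8 CPM in NUL, 26.9, 23.95 and 26.8 CPM in LAC, and 12.9, 14.6 and 15.5 CPM in ID2. ID4 read 8.18, 9.61, 11.3 and 10.6 CPM, ID6 6.55 to 12.3 CPM with a median of 8.59 CPM, ID8 15.4, 25.8 and 12.7 CPM, and REG 15.6, 13.3, 10.6 and 11.5 CPM. The LAC livers were above all others except ID8_14, the same ID8 animal that was highest in Pklr. Pfkfb1 rose in lactation against NUL by 0.97 (SE 0.21, 1.96-fold, edgeR adjusted p = 0.00348), a call that held in all 7 fits without 1 animal. It fell from LAC to ID2 by 0.85 (SE 0.23, edgeR adjusted p = 0.0123), lost without ID2_224 (0.057), and rose from ID6 to ID8 by 1.02 (SE 0.19, edgeR adjusted p = 0.00413). The last comparison sets animals numbered under 200 against animals numbered 200 or over, so stage and number range cannot be told apart in it; with the range as a covariate the difference was 1.12 (adjusted p = 0.116), about as large and no longer called. Apex2, which overlaps Pfkfb1 on the other strand, had 171 to 413 counts, against 471 to 1793 for Pfkfb1.

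In the order of the 7 stage means, neighbouring stages overlapped in their animals in all 9 genes with 3 exceptions, the steps from NUL to ID2 and from ID2 to ID4 in Pklr and from ID2 to ID4 in Ppargc1a. ID2 was the highest stage for Pck1, Fbp1, Pcx, Gckr and Ppargc1a, and LAC the highest for Pklr and Pfkfb1. The lowest stage was LAC for Pck1, G6pc and Gckr, ID4 for Pklr, and ID6 for Fbp1, Pcx, Slc2a2, Ppargc1a and Pfkfb1.

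**Figure D2:**
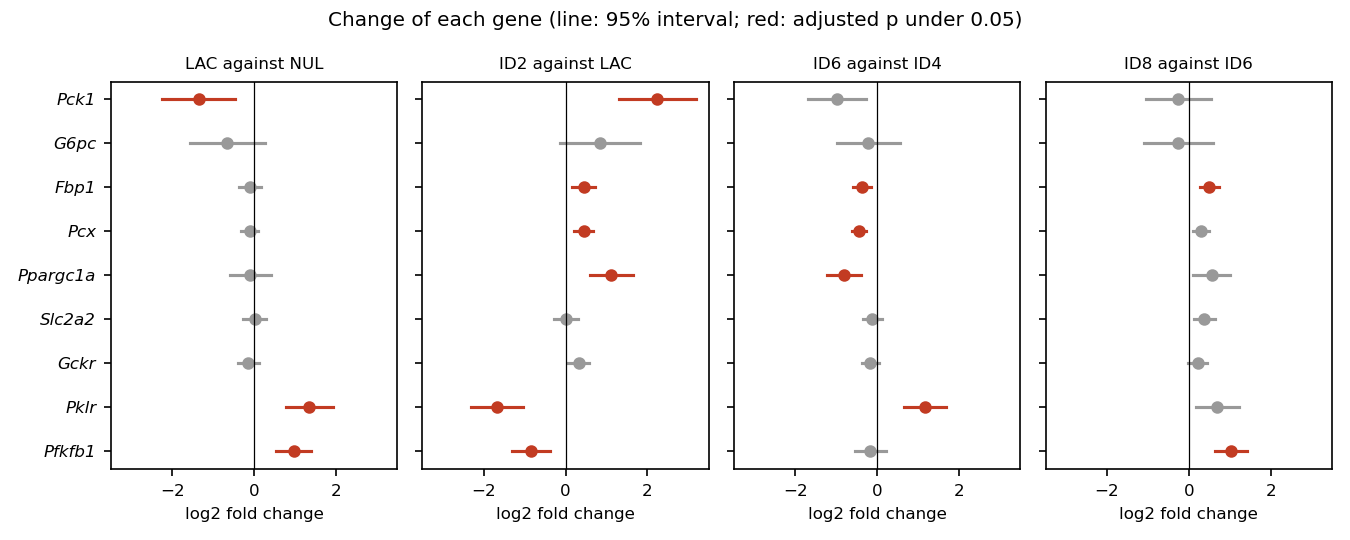
Log2 fold change of each of the 9 genes (horizontal axis, 0 is no difference) with its 95% interval in 4 comparisons; red marks an edgeR adjusted p under 0.05. In lactation against NUL Pck1 lies at -1.36 and Pklr at 1.36, and from LAC to ID2 the same genes lie at 2.25 and -1.68.

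Lactation differed from the nulliparous state in 3 of the 9 genes, Pklr and Pfkfb1 higher and Pck1 lower, where 11.2% of all genes tested were called, 5.19% higher and 6% lower. The same 3 genes were those whose LAC and NUL animals did not overlap, against 21.4% of all genes. The median log2 fold change over the 9 genes was -0.10, and over all genes tested it was -0.01. Fbp1 (-0.10, 95% interval -0.36 to 0.17), Pcx (-0.11, -0.32 to 0.11) and Slc2a2 (0.02, -0.26 to 0.29) had narrow intervals around 0.

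Weaning brought the most calls of the 11 comparisons: 6 of the 9 genes between LAC and ID2, against 16.1% of all genes, with Pck1, Fbp1, Pcx and Ppargc1a higher (8.48% of all genes) and Pklr and Pfkfb1 lower (7.64%). Those that rose are 3 enzymes of glucose production and their coactivator, and both that fell act on glycolysis. The median over the 9 genes was 0.44 and over all genes 0.02, and 7 genes, the 6 with Gckr, did not overlap, against 35.7% of all genes. This comparison and the one before share the LAC animals, so the opposite signs are not independent of each other. With the number range as a covariate 3 calls were left, Pck1, Pklr and Ppargc1a, with Fbp1 at 0.43 (adjusted p = 0.111), Pcx at 0.37 (0.075) and Pfkfb1 at -0.79 (0.0941), and the same 3 were left among animals numbered 200 or over (Pck1 2.45, adjusted p = 0.0467; Pklr -1.86, 0.0415; Ppargc1a 1.16, 0.0393), with ID2 then 1 animal that was taken to vary like the others. Beside these changes, periportal markers, the zone where gluconeogenesis is strongest, summed to 7180 to 7830 CPM in ID2 and 5660 to 5960 CPM in LAC, pericentral markers, of the opposite zone, to 1360 to 1620 CPM in ID2 and 1100 to 1230 CPM in LAC, and the clock score was higher in ID2. Of the 6 periportal genes Cyp2f2 went the other way, with a mean of 774 CPM in ID2 and 1040 CPM in LAC. Of the 7 pericentral genes Oat had its lowest stage mean in LAC and its highest in ID2 (556 CPM), while Glul (614 CPM in LAC and 572 CPM in ID2), Cyp1a2 (292 and 286 CPM) and Rhbg (7.07 and 6.82 CPM) did not have a higher mean in ID2. The part of these markers was not tested. With the clock score as a covariate Pck1, Pklr, Ppargc1a and Pfkfb1 kept their calls, and Fbp1 (0.38, adjusted p = 0.173) and Pcx (0.30, 0.153) lost theirs.

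Against NUL, the days after weaning held few calls. ID2 had 1, Ppargc1a, against 3.24% of all genes (2.32% higher), and 4 genes at an unadjusted p under 0.05, against 16.9% of all genes at that threshold. ID4 (4.25% of all genes), ID6 (1.08%), ID8 (0.499%) and REG (0.0852%) had none by edgeR, with 4, 3, 2 and 1 genes at an unadjusted p under 0.05 in that order, against 18.6%, 11.9%, 12.8% and 7.17% of all genes. DESeq2 called Pcx in ID4, Pfkfb1 in ID6 and Pklr in ID8, and none in REG, and edgeR with only ID4 and NUL in the fit called Pklr (-0.68, adjusted p = 0.00379). Animals did not overlap with NUL in Pcx, Pklr and Ppargc1a at ID2 (17.9% of all genes), in Pcx and Pklr at ID4 (11.6%) and in Pklr at ID8 (11.9%). All these comparisons share the 4 NUL animals.

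Between successive days, ID4 differed from ID2 in none of the 9 genes by edgeR (1.49% of all genes, and 3 of the 9 at an unadjusted p under 0.05, against 13.9% of all genes); DESeq2 called none, and edgeR with only these 2 groups in the fit called Pfkfb1 (-0.53, adjusted p = 0.0321). The 2 stages did not overlap in Fbp1, Pklr (by a margin under 1 CPM), Ppargc1a and Pfkfb1, against 16.2% of all genes. ID6 differed from ID4 in 4 (8.53% of all genes), with Fbp1, Pcx and Ppargc1a lower (4.64%) and Pklr higher (3.89%), and without overlap in Fbp1, Pcx and Pklr (8.25%). Among animals numbered 200 or over, Pcx (-0.39, adjusted p = 0.0343) and Ppargc1a (-0.99, 0.0177) were called, and Pklr stood at 1.12 (0.0807) and Fbp1 at -0.41 (0.0767). The Fbp1 call was also lost with the number range (-0.36, adjusted p = 0.0989) or the clock score (-0.34, 0.0839) as a covariate and with limma on log2(TPM + 1) (-0.25, 0.115) or log2(TPM + 0.1) (-0.25, 0.112). The clock score ran from -0.43 to 1.61 in ID4 and from -1.83 to -0.75 in ID6, without overlap, and its part in this step was not tested further. ID8 differed from ID6 in 2 (4.12% of all genes), Fbp1 and Pfkfb1, both higher (2.37%), and without overlap in Pcx, Slc2a2 and Pfkfb1 (10.1%). With the number range as a covariate neither call was left, with differences about as large (Fbp1 0.49, adjusted p = 0.209; Pfkfb1 1.12, 0.116). REG differed from ID8 in none (0.0487% of all genes, 1 of the 9 at an unadjusted p under 0.05, against 9.02% of all genes), and DESeq2 called none.

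**Figure D3:**
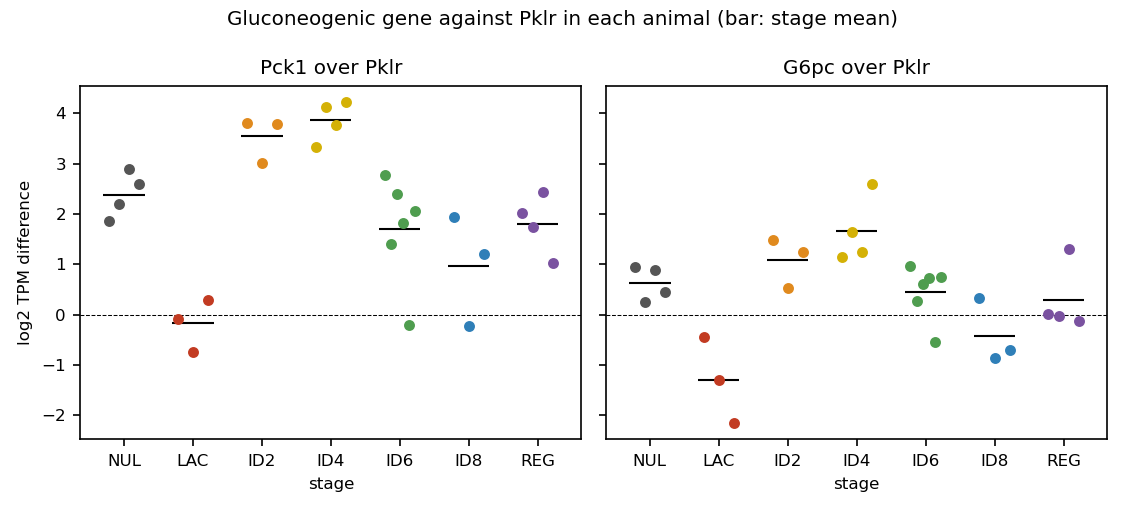
Log2 TPM of Pck1 minus that of Pklr (left) and of G6pc minus that of Pklr (right) in each animal by stage; bars are stage means and 0 means equal TPM. For Pck1 the LAC livers sit between -0.74 and 0.30 and all ID2 and ID4 livers between 3.01 and 4.22.

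The ratio of Pck1 to Pklr within each animal is given as a description only, since these 2 enzymes were picked for having the widest swings over the same animals. The log2 TPM of Pck1 minus that of Pklr was 1.85, 2.20, 2.89 and 2.6 in NUL, -0.08, -0.74 and 0.30 in LAC, and 3.81, 3.01 and 3.79 in ID2. It was 3.33, 4.13, 3.77 and 4.22 in ID4, -0.20 to 2.78 in ID6, 1.94, -0.22 and 1.20 in ID8, and 2.01, 1.74, 2.44 and 1.02 in REG. LAC was below NUL and NUL below ID2 and ID4 in every animal, and in LAC the 2 mRNAs were near parity (geometric mean ratio 0.889; the log2 mean of -0.17 was 0.11 without LAC_213), against 5.23 in NUL, 11.6 in ID2 and 14.6 in ID4. G6pc minus Pklr had stage means of 0.63 ± 0.33 (SD, n = 4, 0.26 to 0.94) in NUL, -1.30 ± 0.85 (SD, n = 3, -2.15 to -0.45) in LAC, 1.09 ± 0.50 (SD, n = 3, 0.53 to 1.49) in ID2 and 1.66 ± 0.66 (SD, n = 4) in ID4. ID6 and ID8 each held 1 animal, ID6_230 and ID8_14, with Pck1 below Pklr. These ratios were not tested.

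The other genes of the pathway were followed as lists. Among 29 further enzymes of glycolysis and gluconeogenesis, all tested, 15 were called in lactation against NUL, 12 higher and 3 lower. Of all genes 11.2% were called (5.19% higher, 6% lower). The median of the list was 0.30 against -0.01 for all genes. The list mixes both directions. On the side of glucose production, means in NUL and LAC were 2.645 and 4.326 CPM for Pck2 and 115.9 and 183.1 CPM for Slc37a4. They were 4.147 and 4.249 CPM for G6pc3 and 0.1909 and 0.1093 CPM for Fbp2. Aldoc, which encodes aldolase C, rose from 8.29 ± 1.35 (SD, n = 4) to 16.8 ± 2.59 CPM (SD, n = 3), by 1.02 (edgeR adjusted p = 0.00141), and Eno1, enolase, from 223.5 ± 32.8 (SD, n = 4) to 342 ± 35.2 CPM (SD, n = 3), by 0.61 (edgeR adjusted p = 0.00477). The 3 that fell, Hk1, Hk3 and Pfkp, are isoforms known mainly from cells other than hepatocytes; Hk1 went from 5.25 ± 0.274 (SD, n = 4) to 3.10 ± 0.0904 CPM (SD, n = 3). Beside them, Kupffer cell markers summed to 304 to 388 CPM in NUL and 200 to 287 CPM in LAC. Stellate cell markers summed to 231 to 328 and 168 to 195 CPM. Sinusoidal endothelium had medians of 223 and 187 CPM, without overlap. Marco of the Kupffer list (means of 2.6 and 2.82 CPM) and Lrat of the stellate list (8.72 and 9.44 CPM) went the other way. The hepatocyte genes did not move together. Alb had means of 89800 and 177000 CPM and Serpina1a 5980 and 8660 CPM. Cyp2e1 (4180 and 1490 CPM) and Ttr (6730 and 6400 CPM) were lower in LAC, and Apoa1, Cps1, Tat and Hnf4a slightly higher. The part of these shifts was not tested. The Hk3 call was lost without LAC_213, LAC_240, NUL_220 or NUL_226. Without LAC_213 the count of 15 went to 7.

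From LAC to ID2, 11 of the 29 enzymes were called, 8 lower and 3 higher, where 16.1% of all genes were called (7.64% lower, 8.48% higher), with a median of -0.19 against 0.02 for all genes. Eno1 fell by 0.70 (edgeR adjusted p = 0.00252), which held in all 6 fits without 1 animal. The 3 that rose were Hk1, Pfkp and Pkm. Beside them, Kupffer cell markers summed to 200 to 287 CPM in LAC and 286 to 354 CPM in ID2. Stellate cell markers summed to 168 to 195 and 228 to 253 CPM, without overlap. Sinusoidal endothelium summed to at most 189 and at least 222 CPM, also without overlap. Of the endothelial genes Lyve1 went the other way, with means of 5.54 CPM in LAC and 4.86 CPM in ID2. The part of these cell types was not tested. Aldoc and Hk3 were not called at this step. The count was 5 without LAC_213 and 6 without ID2_224, and none of the 29 was called among animals numbered 200 or over.

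Of 25 genes that bring precursors and pyruvate into the pathway, 7 were called in lactation (4 higher, 3 lower, median 0.06), against 11.2% of all genes, and 11 from LAC to ID2 (5 higher, 6 lower, median -0.01), against 16.1%. In lactation Gpt2, Pdha1, Pdk1 and Pdk2 were higher and Ldha, Pdp2 and Sds lower, and after weaning Got1, Got2, Gpt, Pdp2 and Sds were higher. The 6 that were lower after weaning included 2 kinases that inhibit pyruvate dehydrogenase, named here after their values were seen: Pdk4 fell by 1.40 (edgeR adjusted p = 0.00601), which held in all 6 fits without 1 animal, and Pdk1 by 0.66 (edgeR adjusted p = 0.0124), lost without ID2_224, ID2_39 or LAC_213. The other 2 kinases of the list were not called at this step, Pdk2 at 88.8 CPM in LAC and 108.5 CPM in ID2 (0.29, edgeR adjusted p = 0.123) and Pdk3 at 0.362 and 0.532 CPM (0.54, edgeR adjusted p = 0.465). Got1, the cytosolic aspartate aminotransferase, rose from 369.8 ± 40.3 to 738 ± 43.4 CPM (SD, n = 3 each) after weaning, by 0.997 (SE 0.15, edgeR adjusted p = 7.09e-05), and Got2, its mitochondrial partner, by 0.30 (edgeR adjusted p = 0.0177; lost without ID2_39, LAC_200 or LAC_213). Sds, serine dehydratase, which feeds serine into pyruvate, fell by 0.62 in lactation (edgeR adjusted p = 0.0285) and rose by 1.28 after weaning (SE 0.20, edgeR adjusted p = 0.000129), when Gpt, alanine aminotransferase, rose by 0.78 (edgeR adjusted p = 0.00133). These weaning calls of Sds and Gpt held in all 6 fits without 1 animal, and the lactation call of Sds was lost in 5 of 7. Pdp2, a phosphatase that activates pyruvate dehydrogenase, fell by 0.40 in lactation (edgeR adjusted p = 0.0194) and rose by 0.44 from LAC to ID2 (edgeR adjusted p = 0.0122). Pdk2, a kinase that opposes it, rose by 0.38 in lactation (edgeR adjusted p = 0.0329). Both of these lactation calls were lost without LAC_240 or NUL_226, that of Pdp2 also without LAC_213 and that of Pdk2 also without LAC_200 or NUL_227. The lactation count was 4, 3 and 2 without LAC_200, LAC_213 and LAC_240 in turn, and the weaning count was 7 without LAC_213.

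Of 22 regulators of glucose genes, 5 fell in lactation and none rose (median -0.15), where 6% of all genes fell and 5.19% rose, and 6 rose and none fell from LAC to ID2 (median 0.32), where 8.48% rose and 7.64% fell. In lactation Gcgr, the glucagon receptor, fell by 0.32 (edgeR adjusted p = 0.0123), Txnip, a glucose-responsive inhibitor of glucose uptake, by 0.62 (edgeR adjusted p = 0.0137), and Ppargc1b, the relative of Ppargc1a, by 0.87 (edgeR adjusted p = 0.0462), as did Creb3l3 (-0.53) and Nr3c1, the glucocorticoid receptor (-0.32). After weaning Foxo3, a forkhead factor restrained by insulin, rose by 0.52 (edgeR adjusted p = 0.00657) and Ppargc1b by 0.94 (edgeR adjusted p = 0.0315). In lactation Gcgr was lost without LAC_240 or NUL_221, Txnip without LAC_240 or NUL_220, and Ppargc1b, Creb3l3 and Nr3c1 in 5, 6 and 4 of 7 fits without 1 animal; after weaning Foxo3 was lost without LAC_213 and Ppargc1b in 4 of 6 such fits. These counts rest on single livers: the lactation count was 1 to 3 without LAC_200, LAC_213, LAC_240, NUL_220, NUL_221 or NUL_226, and the weaning count 3 without LAC_200 and 1 without LAC_213. The weaning count was also smaller with the number range or the clock score as a covariate, as given in the closing section.

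Of 15 genes of glycogen metabolism, 4 rose in lactation and none fell (median 0.27), against 5.19% and 6% of all genes, and from LAC to ID2 4 fell and 1 rose (median -0.10), against 7.64% and 8.48%. Gbe1, the branching enzyme, rose from 51.8 ± 6.35 (SD, n = 4) to 87.5 ± 1.39 CPM (SD, n = 3) by 0.76 (edgeR adjusted p = 4.945e-05) and fell to 44.4 ± 1.29 CPM (SD, n = 3) by 0.98 (edgeR adjusted p = 6.2e-06), with both calls kept in every fit without 1 animal. Ugp2, which makes UDP-glucose, rose by 0.64 (edgeR adjusted p = 0.000428) and fell by 0.48 (edgeR adjusted p = 0.00878). The weaning call of Ugp2 was lost without ID2_39 or LAC_213. Gys2, glycogen synthase, was also called in lactation (0.32), and after weaning Ppp1r3b (-0.79) and Phka2 (0.34) were called, the first lost in 5 of 6 fits without 1 animal and the second in 3. Gyg, the glycogen primer, was called over the 7 stages jointly (edgeR adjusted p = 0.00277) and at neither step. The lactation count was 2 without LAC_240, and the weaning count was 2 to 3 without ID2_224, ID2_31, ID2_39, LAC_213 or LAC_240.

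Genes whose levels ran most like those of 3 members were ranked by Pearson's r of log2 CPM over the 27 libraries among 10552 genes; the libraries share stages, so r is a description. For Pck1 these were Sdc4 (r = 0.862, and 0.937 over the 7 stage means), Tm4sf4 (0.842 and 0.932) and N4bp2l1 (0.788 and 0.91). For Pklr they were Hcn3 (0.959 and 0.968), which overlaps it, Acaca (0.954 and 0.978), the first enzyme of fatty acid synthesis, and G6pdx (0.948 and 0.962), the entry enzyme of the pentose phosphate pathway. For G6pc the values were lower, with Slc25a25 at 0.729 (0.681 over stage means), Rasgef1b at 0.703 (0.859) and Wsb1 at 0.697 (0.791).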

How the data were processed

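Bulk RNA-seq of 27 whole mouse livers was analysed, 1 library per animal, grouped by the stage in the sample titles. Per the submitters' processing notes, the tools were STAR 2.6.1a and RSEM 1.3.1 and the build GRCm38 (mm10); trimming, annotation release and use of strand are not given in the sources used here. Expected counts were deposited by the authors, per the file headers, as RSEM's whole or fractional read estimates, in which reads matching several genes are divided. TPM and FPKM are length-scaled values that the authors deposited beside it, per the file headers; FPKM and the effective length were not used. Positions and symbols come from GENCODE M21 on GRCm38, in which 51633 of 51826 identifiers were found.

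Expected counts were rounded and fitted with edgeR 4.0.16 in R 4.3.3 (filterByExpr, TMM, robust quasi-likelihood test, 7 stages in 1 fit), which left 20 residual degrees of freedom. P-values were adjusted by Benjamini-Hochberg over 16428 genes and called under 0.05. SE and 95% intervals come from the F statistic. CPM are TMM-scaled. The alternatives used DESeq2 1.42.0 and limma 3.58.1 among others. The fitting code was tested on simulated data. All 9 members and in each pathway list up to 4 genes with the smallest joint p are named, as are genes called in a list of 5 or fewer, chosen after their values were seen; some genes under this rule are not reported here by name but are in the counts. Members and lists were chosen with earlier results of these data known. Promoter windows are from RefSeq on GRCm38.p6. Depth was 41120650 to 75664540 counts per library.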

Additional observations from a re-analysis of the deposited data

Results flagged for a closer look

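Ppargc1a in ID4 had 1 liver far from the other 3: ID4_13 read 5.11 CPM, against 8.97 to 9.42 CPM in the others, a gap that makes up most of the group's range. Of 36 groups of 1 gene at 1 stage with 4 or more animals, this was the only 1 with such a gap, and chance gives about 1 in 20.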

How the results depend on the processing

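No value of a called gene turned its direction under any alternative. No paired analysis was possible because no animal number occurs in more than 1 group. Of the 9 genes, leaving out 1 animal gave 6 to 8 calls over the stages jointly, 2 to 3 in LAC against NUL, 0 to 1 in ID2 against NUL (0 without ID2_39), 0 to 1 in ID8 against NUL (1 without ID8_98b), 4 to 6 in ID2 against LAC, 3 to 5 in ID6 against ID4, 1 to 4 in ID8 against ID6 (1 without ID8_98b or ID8_101b, 4 without ID8_14) and 0 to 0 in the other comparisons. The count for ID2 against NUL was 0 with the clock score as a covariate, 0 at an adjusted p under 0.01, 0 with only animals numbered 200 or over and 2 with DESeq2. DESeq2 called 1 gene in each of ID4, ID6 and ID8 against NUL and 4 in ID8 against ID6. With only the 2 groups compared in the fit, 1 was called in ID4 against NUL, 1 in ID4 against ID2 and 0 in ID8 against ID6. With the number range as a covariate, 3 were left in ID2 against LAC and 0 in ID8 against ID6; with only animals numbered 200 or over, 3 in ID2 against LAC and 2 in ID6 against ID4. At an adjusted p under 0.01, 2 were left in ID6 against ID4 and 1 in ID8 against ID6, where the clock covariate and limma on log2(TPM + 1) or log2(TPM + 0.1) each left 1. Restricting to number ranges, and all alternatives for the lists and ratios, were chosen after the data had been seen.

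In LAC against NUL, the 29 enzymes gave 7 calls at an adjusted p under 0.01, 8 with limma at either pseudocount and 7 to 14 without 1 animal; the 25 precursor genes gave 1 at 0.01 and 2 to 7 without 1 animal; the 22 regulators gave 3 without the count filter, 0 at 0.01, 2 with only the 2 groups, 3 with limma on log2(TPM + 1) and 1 to 4 without 1 animal; and the 15 glycogen genes gave 2 with limma at either pseudocount and 2 to 5 without 1 animal. In ID2 against LAC, the enzymes gave 3 with the number range and 4 with the clock score as a covariate, 6 at 0.01, 0 among animals numbered 200 or over and 5 to 10 without 1 animal. The precursor genes gave 7, 7 and 2 with the number range, at 0.01 and in animals numbered 200 or over, and 7 to 11 without 1 animal. The regulators gave 2 with the number range, 1 with the clock score, 3 at 0.01, 3 with limma on log2(TPM + 1), 1 in animals numbered 200 or over and 1 to 6 without 1 animal. The glycogen genes gave 3 without the count filter, 1 with the number range, 2 with the clock score, 3 with the number of runs, 2 at 0.01, 2 with limma at either pseudocount, 1 in animals numbered 200 or over and 2 to 4 without 1 animal. The cause of these shifts was not tested. The Pck1 to Pklr ratio kept its sign at both pseudocounts in every stage mean.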
